A study of Homo sapiens with 14 samples.

Results

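Broad KLF4 domains were ChIP-seq intervals of 1 kb or more, and they were chosen by their width alone, in 2 peak lists taken separately. The WT As3+ list held 798 such domains among 29866 peaks on chromosomes 1 to 22 and X, and the Nrf2 KO control list held 1704 among 76521. The cells were BEAS-2B, an established line of human bronchial epithelial cells. WT As3+ cells expressed Nrf2 and received 1 µM trivalent arsenic (As3+) for 6 h, and Nrf2 KO control cells carried a CRISPR-Cas9 knockout of Nrf2, made with guide RNAs against exon 2, and received no arsenic. The other KLF4 libraries were the untreated WT control and Nrf2 KO As3+ cells given the same arsenic exposure. Knockout colonies were blasticidin-selected and had no detectable Nrf2 protein, and WT colonies were those of the same procedure that kept it. Each condition had 1 library, so genotype, arsenic, the colony used and the library itself cannot be told apart, and no test between conditions was possible. The lists held 751 peaks in WT control and 130 in Nrf2 KO As3+. Peak lists carry no measure of Nrf2 or of total reads. The labels could therefore not be checked here, and the part of depth in these numbers was not tested. Many differences below are given as shares, and the intervals printed with some of them are exact (Clopper-Pearson) 95% intervals, which cover counting error only. Other shares, and the medians, folds and widths, are given without an interval.

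KLF4 is a zinc finger transcription factor that binds CACCC and GC-rich words, many of them in gene promoters. It is known in epithelia for its part in differentiation and in stem cells as a reprogramming factor. Nrf2, encoded by NFE2L2, is the transcription factor that switches on antioxidant genes through the antioxidant response element. A ChIP-seq peak is a stretch of genome where immunoprecipitated DNA fragments pile up over the local background, its summit is the highest point, and its fold enrichment is the height of the summit relative to that background. A transcription start site (TSS) was the start of the canonical transcript of any gene in the annotation, and a peak was at a TSS when its summit lay within 2 kb of it. Peaks over 2 kb from any such TSS are called distal, although some lay near the start of another transcript. With every transcript start counted, 702 of 798 WT As3+ domains were at a start, against 632. For Nrf2 KO control 1513 of 1704 were, against 1373. Results for distal peaks were not repeated with those starts.

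Sequence at the summits is shown first for distal domains, because an AP-1 word was frequent in them in 1 of the lists. The lines below give 28 bases of GRCh38 (hg38) round the word TGAGTCA, the core bound by the JUN and FOS proteins of AP-1, for the 5 distal WT As3+ domains with the largest fold among those with the word in the 200 bp centred on the summit. Domains of 1 chromosome were left out of these lines. The word is in capitals and each line runs 5′ to 3′ on the strand that carries it. Each is named by the gene with the nearest TSS.

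LINC00592, chr12:52147486-52147513, plus strand: gctgcagcccTGAGTCAcccgggtgtgg
LAMA5-AS1, chr20:62359636-62359663, plus strand: aactgcccccTGAGTCAccagtgaccag
ENSG00000269652, chr19:41226182-41226209, minus strand: ctgcccccgcgTGAGTCAccgggggcac
ENSG00000280758, chr9:128635508-128635535, minus strand: ctcccgcagcaTGAGTCAcccccctcag
EDN2, chr1:41496378-41496405, plus strand: gtgccggccaTGAGTCAgcgcgcaggaa

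These 5 domains had 17.4-fold to 29.2-fold enrichment in WT As3+ and 9.34-fold to 13.7-fold in the overlapping Nrf2 KO control peaks. The LAMA5-AS1 domain lay in an intron of LAMA5, which encodes a laminin chain of the basement membrane. The ENSG00000269652 domain lay in an intron of AXL, a receptor tyrosine kinase. EDN2 encodes the peptide endothelin 2, and its domain lay between genes, 11786 bp from the TSS. The word was 26 to 91 bp from the summit in them.

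The next lines give 28 bases round the KLF words CCACACCC and CCACGCCC for the domains at a TSS with the largest fold among those with such a word in the same window, 1 for each nearest gene, 5 in WT As3+ and then 4 in Nrf2 KO control. They are shown because this is the kind of word that KLF4 binds.

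TAGLN2, chr1:159924603-159924630, plus strand: acccccacgaCCACACCCtgggccgtta
SEC61G, chr7:54759071-54759098, plus strand: gccggctcgcCCACGCCCgctgccccca
HDAC4-AS1, chr2:239401748-239401775, minus strand: gacctacaccCCACACCCtcacggccgc
MAP1LC3B, chr16:87392211-87392238, plus strand: ctgggttccgCCACGCCCgtcatggcgg
TMSB10, chr2:84905742-84905769, minus strand: ccggatccgaCCACACCCtgggtgggcc
MYCNOS, chr2:15942224-15942251, plus strand: gagctgctgcCCACGCCCccgctgtcgc
ENSG00000286389, chr1:227788065-227788092, minus strand: ccccgcctggCCACACCCacagcccctc
HEMK1, chr3:50569083-50569110, plus strand: ctaagatagaCCACGCCCccggacatct
LIPT2, chr11:74493742-74493769, minus strand: gcccctcaggCCACGCCCccaggcccac

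TAGLN2 encodes an actin-binding transgelin, SEC61G a subunit of the protein channel of the endoplasmic reticulum, MAP1LC3B an autophagy protein and TMSB10 an actin-sequestering thymosin. The word lay 12 to 88 bp from the summit in the WT As3+ domains and 10 to 81 bp in the Nrf2 KO control domains. A match in these lines describes the letters and not a site in use.

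Broad domains were a small part of each list. They made up 2.67% of the WT As3+ peaks (2.49% to 2.86%) and covered 1.02 of the 11.2 Mb under peaks, which is 9.1%. Those of Nrf2 KO control made up 2.23% (2.12% to 2.33%) and covered 2.2 of 26.4 Mb, or 8.32%. The widest domain was 3201 bp in WT As3+ and 3843 bp in Nrf2 KO control. The WT control list held 3 intervals of 1 kb or more among 751 peaks, with 1217 bp as the widest. The Nrf2 KO As3+ list also held 3 among 130, the widest being 1298 bp. The values that the rule fixed, or that move with width in the same list, follow as a description. The median width was 1188 bp in WT As3+ (quartiles 1078 and 1379 bp) and 1200 bp in Nrf2 KO control (1082 and 1387 bp). The median fold enrichment was 7.38 in the WT As3+ domains and 4.68 in the narrower peaks of that list. The medians in Nrf2 KO control were 7.1 and 4.67. A median of 20 fragments lay over the summit of a broad WT As3+ domain, against 10 for narrower peaks, and the Nrf2 KO control medians were 14 and 7. The number of fragments behind single peaks therefore differed both between the classes and between the libraries. The lowest background at a summit was 1.9 fragments in WT control, 0.757 in WT As3+, 0.491 in Nrf2 KO control and 1.64 in Nrf2 KO As3+. How this background relates to the number of peaks was not tested.

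The threshold cut through a continuous range of widths. Just inside it in WT As3+ were 1000 bp intervals nearest to ENSG00000237429 and SNX7 and a 1001 bp interval nearest to TNFRSF14, with folds of 11.1, 11.2 and 7.8. Just outside it were 999 bp intervals nearest to B4GALT1, ENSG00000287507 and ENSG00000286895, with folds of 9.49, 7.42 and 6.93. The innermost intervals of Nrf2 KO control were 1000 bp wide, nearest to ENSG00000288804, RPL36AP37 and CDC42EP2, with folds of 6.34, 9.35 and 5.2. Those just outside were 999 bp wide, nearest to NUB1, COL18A1-AS1 and ENSG00000224269, with folds of 9.01, 5.1 and 4.29.

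To ask whether broad domains sat nearer to gene starts than narrower peaks, summits were set against the nearest TSS. In WT As3+ 632 of 798 broad domains were at a TSS, which is 79.2% (76.2% to 82.0%), against 52.6% of narrower peaks (52.0% to 53.2%). In Nrf2 KO control 1373 of 1704 were at a TSS, which is 80.6% (78.6% to 82.4%), against 34.6% (34.3% to 35.0%). The intervals of the broad shares overlapped between the lists, and those of the narrower peaks did not. The median distance to the TSS was 387 bp for broad domains and 1558 bp for narrower peaks in WT As3+. It was, in Nrf2 KO control, 414 bp and 5611 bp. Within 500 bp of a TSS lay 58.6% of the WT As3+ domains (55.1% to 62.1%) and 55.7% of those of Nrf2 KO control (53.3% to 58.1%). More than 10 kb away lay 9.65% and 8.1%, against 26.8% and 37.7% of narrower peaks.

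Among peaks under 1 kb the share at a TSS rose with each step in width. It went from 41.5% under 300 bp to 78.1% at 750 bp to under 1 kb in WT As3+, and from 25.9% to 73.3% in Nrf2 KO control. At 1000 bp to under 1500 bp it was 81.0% (77.8% to 83.9%) and 80.7% (78.6% to 82.7%). Wider domains were fewer and their shares less certain. In WT As3+ the share was 72.0% at 1500 bp to under 2000 bp (62.1% to 80.5%) and 64.5% at 2000 bp or more (20 of 31 domains, 45.4% to 80.8%). The same classes had 80.9% and 75.9% in Nrf2 KO control. The intervals of the widest class overlapped those of the class before it in both lists.

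**Figure D1:**
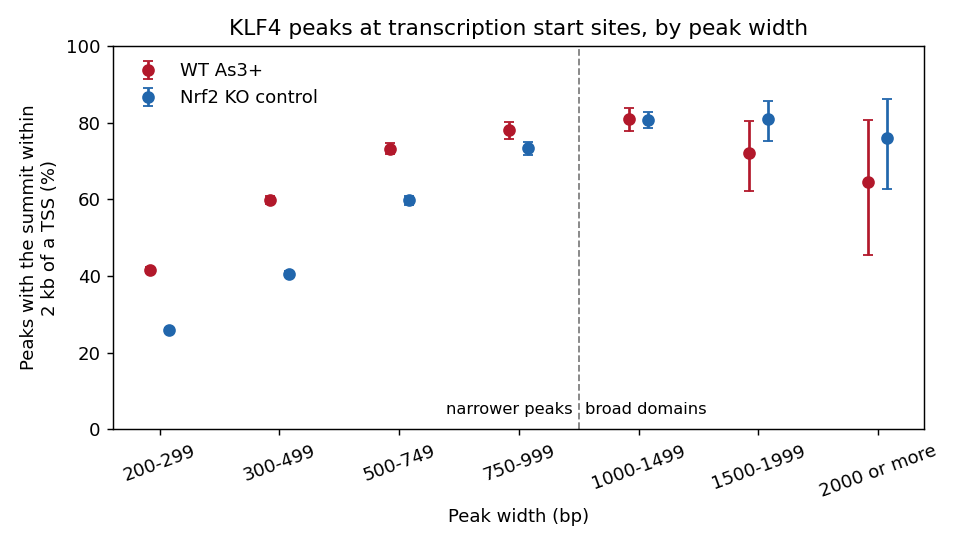
Share of KLF4 peaks with the summit within 2 kb of a TSS (vertical axis, percent) for each class of peak width in bp (horizontal axis), with WT As3+ in red and Nrf2 KO control in blue; bars are exact 95% intervals that cover counting error only, and the dashed line marks 1000 bp. The share climbed from 41.5% and 25.9% in the narrowest class to 81.0% and 80.7% at 1000 bp to under 1500 bp, and was 64.5% and 75.9% at 2000 bp or more.

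Since broad domains were also stronger, the comparison was repeated among peaks of like fold. With both classes held at or above the lower quartile of the broad domains' fold (6.08 in WT As3+ and 6.0 in Nrf2 KO control), 77.1% of broad and 67.2% of narrower peaks were at a TSS in WT As3+. The shares in Nrf2 KO control were 81.8% and 56.5%. The gap between the classes was therefore 9.9 percentage points in WT As3+, down from 26.6. Among the strongest peaks it was not detectable. At a fold of 15 or more 12 of 26 broad domains (46.2%, 26.6% to 66.6%) and 22 of 42 narrower peaks (52.4%, 36.4% to 68.0%) were at a TSS in WT As3+. All 11 broad domains of that fold in Nrf2 KO control were at a TSS, which allows a share as low as 71.5%. Of the 10 WT As3+ domains with the largest fold, 5 were distal.

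Broad domains usually covered the gene start itself. The TSS lay inside the interval for 81.8% of the WT As3+ domains at a TSS (78.6% to 84.7%) and for 77.9% of those in Nrf2 KO control (75.6% to 80.0%), against 33.3% and 26.8% of narrower peaks, a measure that moves with width itself. The side of the gene on which the summit fell does not follow from width. The summit was downstream of the TSS in 52.8% of the WT As3+ domains (48.9% to 56.8%) and in 62.0% of the Nrf2 KO control domains (59.4% to 64.6%). The shares for narrower peaks were 62.0% and 60.5%, so the WT As3+ domains were the more evenly placed. The median edges were 566 bp upstream and 660 bp downstream in WT As3+, and 488 bp upstream and 750 bp downstream in Nrf2 KO control. Of the domains at a TSS, 20.7% in WT As3+ (17.6% to 24.1%) and 29.2% in Nrf2 KO control (26.8% to 31.7%) reached more than 1000 bp into the gene.

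**Figure D2:**
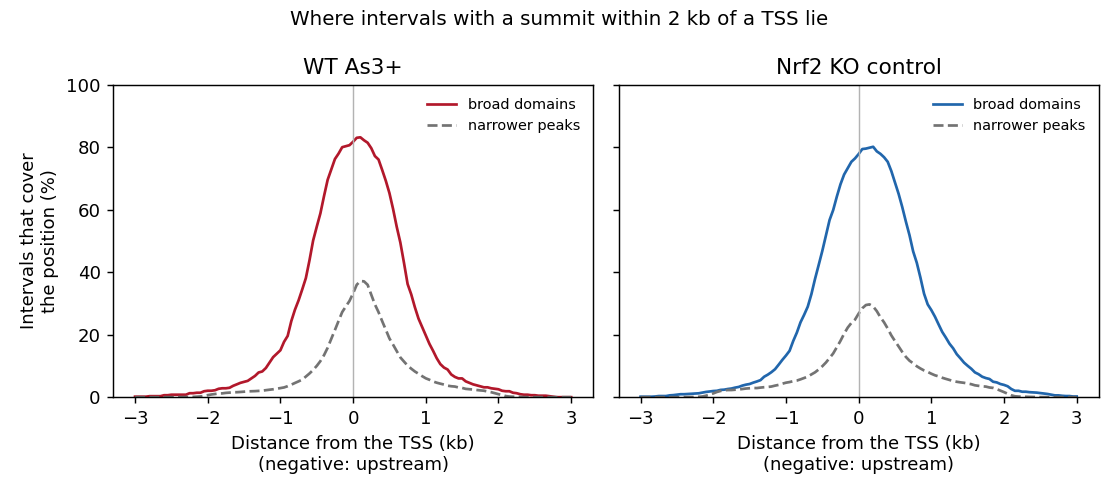
Percent of intervals that cover each position (vertical axis) by distance from the TSS in kb (horizontal axis, negative upstream), for broad domains (solid) and narrower peaks (dashed) with a summit within 2 kb of a TSS, in WT As3+ and Nrf2 KO control. The broad curves are highest just downstream of the TSS, and the downstream flank of the Nrf2 KO control curve extends farther, with 29.2% of its domains reaching more than 1000 bp downstream against 20.7%.

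The nearest TSS was that of a protein-coding gene for 69.0% of the WT As3+ domains and 75.2% of the Nrf2 KO control domains, against 59.5% and 51.1% of narrower peaks. It was that of a long noncoding RNA for 23.8% and 18.9%. Among domains with a protein-coding TSS within 1 kb of the summit, starts on both strands were present in 10.5% in WT As3+ (7.94% to 13.5%, with 7.21% for narrower peaks) and 8.91% in Nrf2 KO control (7.29% to 10.7%, with 6.31%). The place of a summit was read from the canonical transcripts of protein-coding genes only. The 166 distal domains of WT As3+ had their summit in an exon in 9 cases, in an intron in 83 and between genes in 74. The 331 distal domains of Nrf2 KO control had it in an exon in 30, in an intron in 153 and between genes in 148.

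The study compared KLF4 binding between WT and Nrf2 KO cells with and without arsenic, and these lists allow the domains of arsenic-treated WT cells to be set beside those of untreated Nrf2 KO cells. Nearly every broad WT As3+ domain met a Nrf2 KO control peak of some width. By an overlap of 1 bp, 786 of 798 did, which is 98.5% (97.4% to 99.2%), and the background was 54.4% of narrower WT As3+ peaks. Of the broad Nrf2 KO control domains 1491 of 1704 met a WT As3+ peak, which is 87.5% (85.8% to 89.0%), and the background was 20.2% of narrower peaks. A wide interval has more chance of an overlap, so a fixed window of 200 bp round the summit was also used. In it, 90.4% of the WT As3+ domains and 50.9% of narrower peaks met a Nrf2 KO control peak. In the other direction the shares were 70.7% and 18.2%. Fold enrichment moved with this sharing as well. At a fold of 6 to 7 the shares were 89.2% for broad domains and 69.4% for narrower peaks in WT As3+, and at 10 to 15 they were 95.9% and 90.2%, with overlapping intervals.

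Only some of the counterparts were themselves 1 kb or more, and a counterpart just under that width was not counted as broad. A Nrf2 KO control domain that was itself broad was met by 305 of the 798 WT As3+ domains, which is 38.2% (34.8% to 41.7%), and by 6.19% of narrower WT As3+ peaks. By the same measure, 307 of the 1704 Nrf2 KO control domains, or 18.0% (16.2% to 19.9%), met a broad WT As3+ domain, as did 1.15% of narrower peaks. A single narrower peak lay at 220 WT As3+ domains, several narrower peaks at 261 and no peak at 12. At the Nrf2 KO control domains the numbers were 688, 496 and 213. Where several narrower peaks met a WT As3+ domain, their median width was 420 bp and they covered a median of 69.6% of it, so a stretch called as 1 interval in the first list was split in the other. At MIR3191, for example, a WT As3+ domain of 2387 bp met 4 Nrf2 KO control peaks. The share of domains at a TSS was 83.3% for WT As3+ domains with a broad counterpart and 25.0% for the 12 with none, and in Nrf2 KO control it was 83.4% and 56.8%. At the 213 Nrf2 KO control domains with no counterpart the median was 11 fragments over the summit, against 17 where the counterpart was broad.

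**Figure D3:**
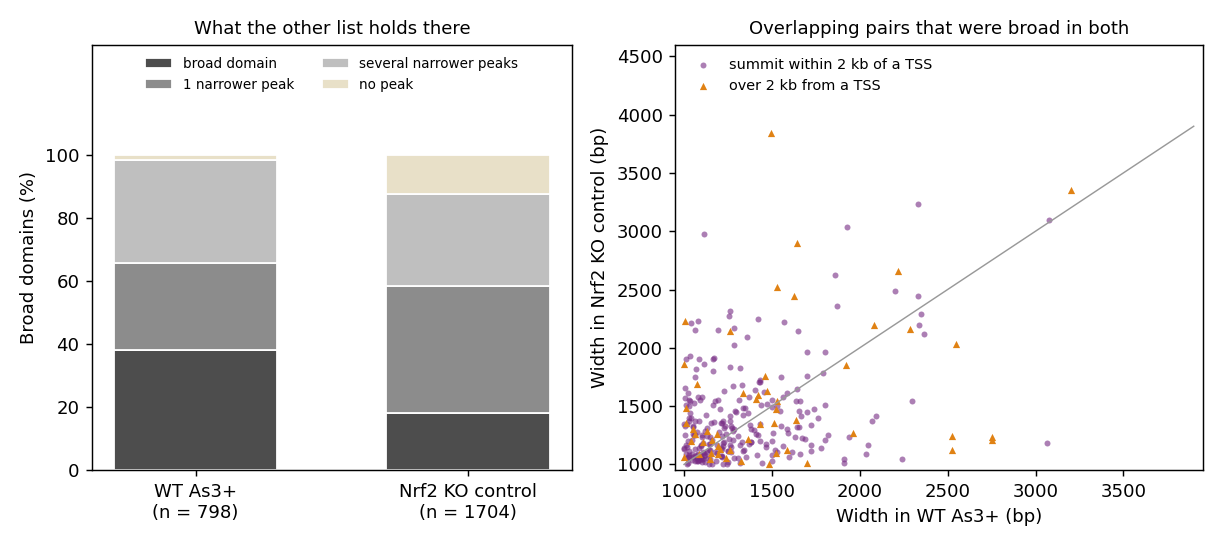
Left, percent of the broad domains of each list (vertical axis) that met a broad domain, 1 narrower peak, several narrower peaks or no peak of the other list by an overlap of 1 bp; right, width in Nrf2 KO control (vertical axis, bp) against width in WT As3+ (horizontal axis, bp) for the 310 overlapping pairs broad in both, with the line of equal width. A broad counterpart was present for 38.2% of the WT As3+ and 18.0% of the Nrf2 KO control domains, and the pairs, with circles for WT As3+ summits at a TSS and triangles for distal ones, scatter on both sides of the line.

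The domains broad in both lists formed 310 overlapping pairs, of which 257 had the WT As3+ summit at a TSS. The Nrf2 KO control interval was the wider in 165 and the WT As3+ interval in 145. Their widths correlated weakly across pairs (Spearman's rho 0.24, n = 310) and so did their folds (rho 0.37). Both values come from pairs that passed the same width threshold on the same genome, so they are a description only. The summits lay a median of 218 bp apart. They were within 100 bp of each other in 91 pairs and over 500 bp apart in 72.

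By summed width, the largest pair lay nearest to MIR661 on chromosome 8. It was upstream of the canonical start of PLEC, the gene of the cytoskeletal linker plectin. Other transcripts of PLEC were not used for this placement. It was 3201 bp wide in WT As3+ with a 14.5-fold summit and 3350 bp in Nrf2 KO control with a 15.0-fold summit, and the summits were 22 bp apart. The next was at MYCNOS and MYCN on chromosome 2, with 3075 and 3095 bp and a shared stretch of 3075 bp. Its folds were 23.0 in WT As3+ and 47.6 in Nrf2 KO control, and the summits were 1187 bp apart. The others of the 5 largest were a second PLEC pair (2329 and 3232 bp, summits 1 bp apart), a PARP10 pair (1497 and 3843 bp) and a CXXC5 pair (1925 and 3032 bp). The PARP10 pair was distal and is named by its nearest gene only. Its Nrf2 KO control summit lay between genes, 9887 bp from the PARP10 TSS. PARP10 encodes a mono-ADP-ribosyltransferase and CXXC5 a CXXC zinc finger protein.

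The untreated WT and the arsenic-treated Nrf2 KO libraries held few peaks, and the share of broad domains that met one was higher than the share of narrower peaks, by a 1 bp overlap that favours wide intervals. A WT control peak overlapped 101 WT As3+ domains, which is 12.7% (10.4% to 15.2%), against 1.86% of narrower WT As3+ peaks (1.71% to 2.02%). A Nrf2 KO As3+ peak overlapped 17, which is 2.13% (1.25% to 3.39%), against 0.196%. Of the Nrf2 KO control domains 71 met a WT control peak, or 4.17% (3.27% to 5.23%), against 0.43% of narrower peaks, and 20 met a Nrf2 KO As3+ peak, or 1.17% (0.718% to 1.81%), against 0.0561%. Peaks in all 4 libraries were found at 12 WT As3+ and 17 Nrf2 KO control domains.

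Intervals of 1 kb or more were present in all 4 libraries at the starts of NBAS, DDX1 and MYCNOS alone. All lie in 1 stretch of chromosome 2, from 15 to 17 Mb, so they may not be separate observations. Without that stretch 79.2% of 793 WT As3+ domains and 80.5% of 1698 Nrf2 KO control domains were at a TSS. NBAS encodes a protein of Golgi-to-endoplasmic reticulum transport, DDX1 an RNA helicase, and MYCNOS is the antisense partner of MYCN. At NBAS the widths were 1217 bp in WT control, 2203 bp in WT As3+, 2488 bp in Nrf2 KO control and 1298 bp in Nrf2 KO As3+, and the folds were 9.9, 35.8, 44.3 and 12.5. At DDX1 the folds were 9.76, 25.0, 32.4 and 8.49, over 56, 106, 88 and 71 fragments. In both genes the WT As3+ and Nrf2 KO control libraries were the widest and the highest, and the other libraries lay close together. CYRIA, which encodes a RAC1-interacting protein and lies in the same stretch, was 1603 bp and 23.4-fold in Nrf2 KO control. Its WT As3+ peak was 653 bp wide and 23.9-fold.

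Away from chromosome 2, the strongest domain at a TSS with a peak in every library was at EGFR, the receptor of epidermal growth factor. Its widths were 455 bp in WT control, 2338 bp in WT As3+, 2197 bp in Nrf2 KO control and 738 bp in Nrf2 KO As3+, with folds of 7.04, 21.4, 26.4 and 8.8. It covered the TSS at chr7:55018387-55020724 in WT As3+, with the summit 758 bp downstream of the TSS. SEC61G, nearby on the same chromosome (chr7:54758337-54759987 in WT As3+), was 428, 1651, 2143 and 460 bp wide in the same order of libraries. Its folds were 4.11, 17.2, 21.2 and 5.34. LEMD2, which encodes an inner nuclear membrane protein, had folds of 9.25, 17.1, 20.2 and 6.68. It was broad in WT As3+ (1246 bp), and its strongest Nrf2 KO control peak was 595 bp wide. TUBB2A, a beta-tubulin gene, was 1198 bp in Nrf2 KO control and 971 bp in WT As3+, with the higher fold in WT As3+ (23.7 against 17.1). CPEB4, an RNA-binding translation regulator, was 1309 bp and 506 bp with folds of 11.6 and 10.4. MIR22 had a 1167 bp WT As3+ domain at 14.2-fold and a 1906 bp Nrf2 KO control domain at 10.2-fold. MIR551A, in an intron of MEGF6, had 1085 bp at 13.0-fold and 1090 bp at 10.5-fold. The order of the libraries in width and in fold was therefore not the same from gene to gene.

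Of the domains with the largest fold in WT As3+, the distal ones are described here. They were picked for their fold in that list, so a lower fold in another list follows in part from the choice. The LINC00592 domain on chromosome 12, between genes and 44544 bp from KRT80 (a keratin gene), had folds of 10.9 in WT control, 29.2 in WT As3+, 12.6 in Nrf2 KO control and 4.58 in Nrf2 KO As3+. It was highest in WT As3+, although its interval was 1007 bp there and 2228 bp in Nrf2 KO control. The LAMA5-AS1 domain had folds of 8.22, 28.2 and 12.7 in the first 3 libraries and no Nrf2 KO As3+ peak. The domain inside AXL had 5.75, 22.9 and 9.34. LINC02298 was 22.9-fold in WT As3+ and 14.7-fold in Nrf2 KO control, and MIR3619 was 20.6-fold and 6.59-fold. TAGLN2, by contrast, lay at a protein-coding start, 902 bp downstream of its TSS, and was 1323 bp and 19.3-fold in WT As3+ against 707 bp and 14.0-fold in Nrf2 KO control. The strongest Nrf2 KO control domains not yet named were at the starts of RAB6A (16.9-fold, 1481 bp), a small GTPase of the Golgi, and PCIF1 (16.2-fold, 1029 bp), a cap-specific RNA methyltransferase. Their strongest WT As3+ peaks were 5.51-fold and 15.5-fold, so the lists were far apart at RAB6A and close at PCIF1.

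The widest domains lay at promoters, in gene bodies and between genes. In WT As3+ the 10 widest were 3 nearest to MIR661 at PLEC (3201, 2751 and 2524 bp), then MYCNOS, YWHAZ (3066 bp), ENSG00000286153 inside RUNX1 (2550 bp), MIR3191 inside BBC3 (2387 bp), EPS8L2 (2366 bp), ENSG00000274270 (2351 bp) and EGFR. YWHAZ encodes a 14-3-3 adaptor, RUNX1 a transcription factor of blood and epithelium, BBC3 the cell death protein PUMA and EPS8L2 an actin regulator. The YWHAZ domain of WT As3+ was overlapped by 3 Nrf2 KO control peaks, the strongest of 1186 bp and 8.67-fold against 11.4-fold in WT As3+. The widest of Nrf2 KO control were PARP10 (3843 bp), MIR661, PLEC (3232 bp), MYCNOS, RHPN1 (3051 bp), CXXC5, ENO3 (2973 bp), SLC16A3 (2903 bp), ENSG00000288704 inside MIDN (2656 bp) and ENSG00000289570 (2637 bp). The PARP10 and RHPN1 domains were distal, with summits 9887 bp and 15072 bp from the TSS. ENO3 encodes an enolase and SLC16A3 a lactate transporter. At SLC16A3 the WT As3+ list held 3 peaks, the strongest of 1642 bp and 13.4-fold against 8.01-fold in Nrf2 KO control. The wider interval was thus not always the stronger.

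Domains with no peak in the other list had lower folds than the strongest named above. In WT As3+ the 5 with the largest fold were SEC11A (9.87-fold, 29 fragments), CRACDL (9.13-fold), LINC02057 (8.28-fold), VSIR (7.61-fold) and RAB33B-AS1 (6.95-fold). SEC11A encodes a signal peptidase subunit and VSIR the immune checkpoint protein VISTA. A WT control peak lay at 3 of these, with 3.47-fold at CRACDL, 6.29-fold at LINC02057 and 4.38-fold at VSIR, and VSIR also had a Nrf2 KO As3+ peak of 4.32-fold. These 3 were present in untreated WT cells and not listed in untreated Nrf2 KO cells. The 5 of Nrf2 KO control were LIPT2 (12.6-fold, 32 fragments), ENSG00000289419 inside BCL9 (12.1-fold), ENSG00000253884 (10.8-fold), UNC119B (10.2-fold) and MGAT3 (10.2-fold), and no other library had a peak at any of them. LIPT2 encodes a lipoyl transferase of mitochondria and MGAT3 a glycosyltransferase. An unlisted peak may lie below a list's threshold.

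Some domains lay in runs. Linking neighbours within 20 kb gave 9 clusters of 3 or more in WT As3+, with 35 domains, and 36 clusters with 141 domains in Nrf2 KO control. The clusters named here were chosen after their values were seen. The largest in both lists was at PLEC on chromosome 8, with 8 domains over 43992 bp in WT As3+ (chr8:143933569-143977560) and 14 over 58964 bp in Nrf2 KO control (chr8:143932484-143991447), where it reached GRINA, the gene of a glutamate receptor-associated membrane protein. In WT As3+ it was followed by PLXNB2 with 5, a semaphorin receptor gene on chromosome 22, and SORBS3 with 4, which encodes the adhesion adaptor vinexin. One of the WT As3+ clusters of 3 ran over FLNA, EMD and RPL10 on chromosome X, where FLNA encodes the actin crosslinker filamin A, and another lay at SEPTIN9 on chromosome 17. The Nrf2 KO control clusters next in size were RHPN1 to MAFA with 9 and GSDMD to ZNF623 with 8, both on chromosome 8 as well. Clustered domains were less often at a TSS, with 42.9% in WT As3+ and 57.4% in Nrf2 KO control. Without them the shares at a TSS were 80.9% and 82.7%.

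The lists also differed in where their domains fell along the genome. The chromosomes named here are examples, and no rule for naming them was set beforehand. Chromosome 20 held 144 of the Nrf2 KO control domains, which is 8.45% of them and 5.5% of all peaks in that list. It held 16 of the WT As3+ domains, or 2.01%, with 3.49% of the peaks. Chromosome 8 held 157, or 9.21%, with 4.99% of the peaks in Nrf2 KO control, and 41, or 5.14%, with 4.04% of the peaks in WT As3+. Part of the 157 lay in runs, with 14 in the PLEC cluster, 9 in that of RHPN1 to MAFA and 8 in that of GSDMD to ZNF623. Chromosome 2 held 73, or 4.28%, with 5.47% of the peaks, and 74, or 9.27%, with 8.32% of the peaks, so there the domains largely followed the lists as a whole.

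Genes with a broad domain at the TSS were then counted. Of 19970 protein-coding genes 629 had one in WT As3+, which is 3.15%, and 1387 had one in Nrf2 KO control, which is 6.95%. Any peak at the start was present for 52.7% and 67.7%. Both lists had a broad domain at 254 genes, which is 40.4% of the WT As3+ genes (36.5% to 44.3%) and 18.3% of the Nrf2 KO control genes (16.3% to 20.5%). Almost all the others had a narrower peak in the other list, since 99.4% of the WT As3+ genes had some peak in Nrf2 KO control and 94.7% of the Nrf2 KO control genes had some peak in WT As3+. A WT control peak lay at 7.47% of the WT As3+ genes and at 3.68% of the Nrf2 KO control genes.

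Over 17 lists of genes from pathways of interest in arsenic-exposed airway cells, 375 genes in all, 21 had a broad domain in WT As3+, which is 5.6% against 3.15% of all genes, and 45 had one in Nrf2 KO control, which is 12.0% against 6.95%. These shares do not allow for how often listed genes had a peak of any width. Among all protein-coding genes with any peak, 5.98% had a broad domain in WT As3+ and 10.3% in Nrf2 KO control. The base there is genes with a peak, so the 5.6% and 12.0% of all listed genes cannot be compared with them directly. Of the 375 listed genes 8 were broad in both lists, beside 254 of all 19970 protein-coding genes. The 8 were KLF10, EGR1, MYC, GADD45A, WNT7B, WNT9A, RB1 and PKP3. None of the counts below was tested, and several rest on 1 to 3 genes.

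The KLF4 start was broad in WT As3+ and not in Nrf2 KO control. KLF4 had no peak in WT control or Nrf2 KO As3+, a 1064 bp domain of 8.5-fold in WT As3+ (chr9:107489411-107490474, with the summit 114 bp upstream of the TSS), and 4 peaks of at most 414 bp in Nrf2 KO control, the widest of 6.03-fold. In the KLF and SP family of zinc finger factors 4 of 18 genes were broad in WT As3+ (KLF4, KLF10, KLF12 and KLF13) and 3 in Nrf2 KO control (KLF5, KLF10 and SP5). KLF10 was 1529 bp in WT As3+ and 1504 bp in Nrf2 KO control, with 6.57-fold and 6.0-fold. NFE2L2, the gene of Nrf2 itself, had broad domains over its start in both, 1333 bp and 6.59-fold in WT As3+ and 1481 bp and 7.53-fold in Nrf2 KO control, and no peak in the other libraries. Among the antioxidant targets of Nrf2, TKT and FTH1 were broad in WT As3+ and not in Nrf2 KO control, and OSGIN1 and TXN were broad in Nrf2 KO control and not in WT As3+. TKT is an enzyme of the pentose phosphate pathway, FTH1 is the heavy chain of the iron store ferritin and TXN is thioredoxin. TXN was 923 bp wide in WT As3+ and 1842 bp in Nrf2 KO control, and FTH1 was 1065 bp and 912 bp.

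Immediate early genes, which respond within minutes to growth factors or stress, had 3 of 22 broad in WT As3+ and 7 in Nrf2 KO control, and the 3 were among the 7. MYC was 286 bp in WT control, 1168 bp in WT As3+ and 1911 bp in Nrf2 KO control, with folds of 4.1, 5.75 and 12.5, and had no Nrf2 KO As3+ peak. EGR1 was 1561 and 1582 bp with folds of 6.05 and 8.49, and GADD45A, a DNA damage response gene, was 1789 and 1783 bp with folds of 6.32 and 7.16. JUNB, ATF3, IER3 and GADD45B were broad only in Nrf2 KO control, where they were 1041 to 1243 bp wide, and their widest WT As3+ peaks were 481 to 774 bp. IER3 had the higher fold in WT As3+ (10.5 against 7.85). Heat shock genes had none of 14 broad in WT As3+ and 3 in Nrf2 KO control (HSF1, HSPA1A and BAG3), and the widest WT As3+ peaks of these 3 were 247 to 667 bp. HSF1 is the master regulator of the heat shock response, HSPA1A an inducible chaperone and BAG3 a co-chaperone.

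**Figure D4:**
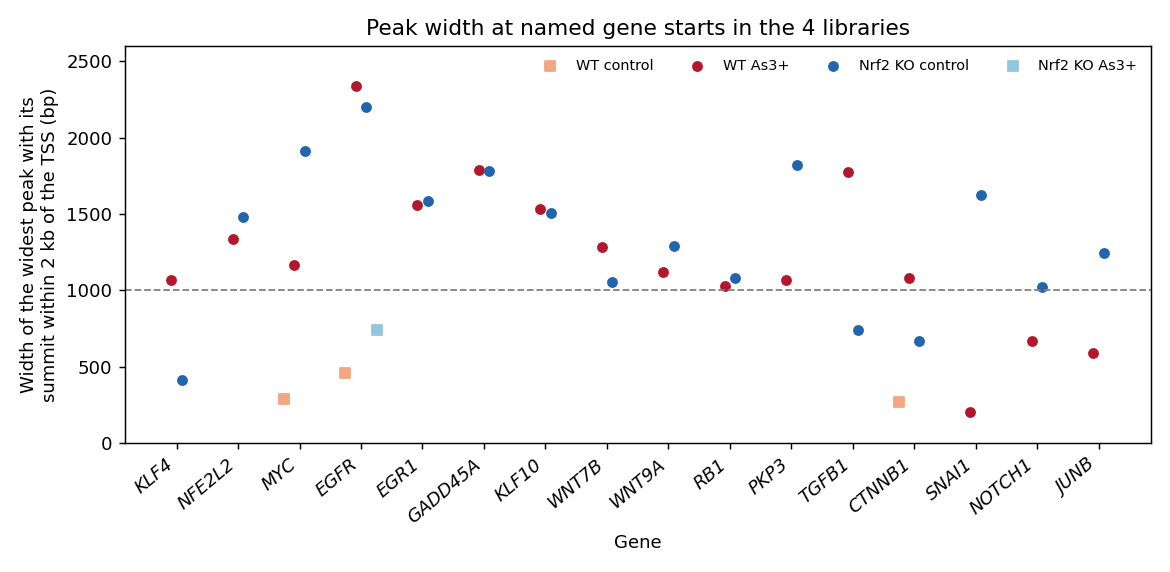
Width in bp (vertical axis) of the widest KLF4 peak with its summit within 2 kb of the TSS of 16 named genes (horizontal axis) in each of the 4 libraries; a missing symbol means that no peak was listed, and the dashed line marks 1000 bp. The genes were chosen after their values were seen. KLF4, TGFB1 and CTNNB1 pass the line in WT As3+ alone, SNAI1, NOTCH1 and JUNB in Nrf2 KO control alone, and EGFR, NFE2L2, EGR1 and MYC in both.

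The lists of developmental pathways are small, and at 3.15% and 6.95% of all genes a count of 0 or 1 lies near the background. WNT genes had 4 of 24 broad in WT As3+ (the ligands WNT7B and WNT9A, the scaffold AXIN1 and the effector CTNNB1, which encodes beta-catenin) and 6 in Nrf2 KO control (the ligands WNT3A, WNT7B and WNT9A and the receptors FZD1, FZD7 and FZD8). CTNNB1 had 267 bp and 3.25-fold in WT control, 1079 bp and 13.0-fold in WT As3+ and 670 bp and 7.7-fold in Nrf2 KO control. The Notch list had none of 16 broad in WT As3+ and 4 in Nrf2 KO control, namely the receptor NOTCH1, the ligands JAG1 and DLL4 and the target HES4. The TGF-beta and BMP list had 2 of 19 in WT As3+, the ligand TGFB1 and the inhibitory SMAD6, and none in Nrf2 KO control. TGFB1 was 1771 bp and 11.6-fold in WT As3+ and 738 bp and 6.86-fold in Nrf2 KO control. Factors of epithelial to mesenchymal transition had none of 9 in WT As3+ and 2 in Nrf2 KO control, SNAI1 (1624 bp, against 204 bp in WT As3+) and PRRX1. Of 49 homeobox genes 2 were broad, SIX2 and SIX4, both in Nrf2 KO control.

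Genes of the epithelium and of growth control had a few members each. Of 19 keratin and junction genes CDH3 and PKP3 were broad in WT As3+, and CDH1 (E-cadherin), DSP (desmoplakin) and PKP3 (plakophilin 3) in Nrf2 KO control. CDH1 was 1462 bp and 6.4-fold in Nrf2 KO control and had no peak in the other 3 libraries. Of 29 airway and epithelial transcription factors ETS2 was broad in WT As3+ and SOX9, TFAP2C and CEBPB in Nrf2 KO control. RB1, the retinoblastoma tumour suppressor, was broad in both (1030 and 1078 bp), and the cyclin genes CCND1 and CCND3 in Nrf2 KO control only. CCND1 had no peak in WT As3+. Of 22 chromatin enzymes KMT2D, CREBBP and KDM6B were broad in Nrf2 KO control and none in WT As3+, and of 19 cytokine and NF-kB feedback genes NFKBIA and NFKB2 were, again in Nrf2 KO control. RPL10 in WT As3+ and RPL8 in Nrf2 KO control were the only ones of 40 ribosomal protein genes, and none of 30 proteasome genes was broad in either list, with any peak at 15 and 21 of them. HMGB1, PDGFB and WNT10A, further genes named in the study, had peaks of 441, 393 and 393 bp in WT As3+ and 230, 632 and 200 bp in Nrf2 KO control, and none was broad.

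Base composition was read in a window of 1000 bp centred on the summit, the same for peaks of any width. A window was counted as a CpG island when it held at least 55% G and C and an observed over expected CpG ratio of at least 0.65. Such windows made up 71.1% of WT As3+ domains (67.8% to 74.2%) and 38.1% of narrower peaks, and 69.0% (66.7% to 71.1%) and 19.8% in Nrf2 KO control, with 56.6% for the starts of all protein-coding genes. At a TSS the shares were 82.3% and 65.0% in WT As3+ and 78.4% and 48.4% in Nrf2 KO control. With the classes held to the same range of fold, they were 82.2% and 79.5% (78.0% to 80.8%) at WT As3+ starts, which overlap, and 80.8% and 69.7% at Nrf2 KO control starts, which do not. The GC box CCCCGCCCC, read on either strand in the 200 bp round the summit, was present in 16.4% of WT As3+ and 14.1% of Nrf2 KO control domains, against 7.53% and 4.4% of narrower peaks and 18.0% of protein-coding starts. The KLF words were present in 13.0% of WT As3+ domains (10.8% to 15.6%) and 9.33% of Nrf2 KO control domains (7.99% to 10.8%), against 10.2% and 9.27% of narrower peaks. The share in all protein-coding starts was 5.98%. At like fold, the KLF words were in 12.4% of broad domains and 10.8% of narrower peaks at WT As3+ starts. In distal WT As3+ peaks the shares were 17.5% and 20.6%. The Nrf2 KO control shares were 9.46% and 7.84% at a TSS and 10.3% and 9.6% in distal peaks. The intervals overlapped each time, so the KLF word did not set the broad domains of either list apart at like fold. The antioxidant response element core TGACNNNGC was present in 10.2% and 8.92% of the domains and in 9.96% of the starts. This core can overlap the AP-1 word on the opposite strand.

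The AP-1 word TGAGTCA separated the distal domains of the lists. It was present in 37 of 166 distal WT As3+ domains, which is 22.3% (16.2% to 29.4%), and in 6.46% of distal narrower peaks. In Nrf2 KO control it was present in 18 of 331, which is 5.44% (3.25% to 8.46%), and in 2.87% of narrower peaks. At a TSS the shares were 2.69% and 1.97% of the domains, and 2.11% of all protein-coding starts held the word. In the WT As3+ list the narrower distal peaks held the word more often as their fold rose, from 5.69% under 6-fold to 21.0% at 8-fold to 10-fold, with 14.5% at 10-fold or more. The broad distal domains ranged from 18.5% to 26.4% over the same bands and did not climb with fold, and at 8-fold to 10-fold the classes had overlapping intervals (18.8% against 21.0%). In Nrf2 KO control the share in distal domains was 11.6% under 6-fold (5.92% to 19.8%) and 0 of 27 at 10-fold or more, which allows up to 12.8%, so the intervals overlap. The narrower distal peaks of that list had 2.88% under 6-fold and 8.96% at 10-fold or more. From the lower quartile of fold upward, the word was in 21.9% of distal broad domains and 12.4% of narrower peaks in WT As3+, and in 2.58% and 2.87% in Nrf2 KO control, where the intervals overlap.

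**Figure D5:**
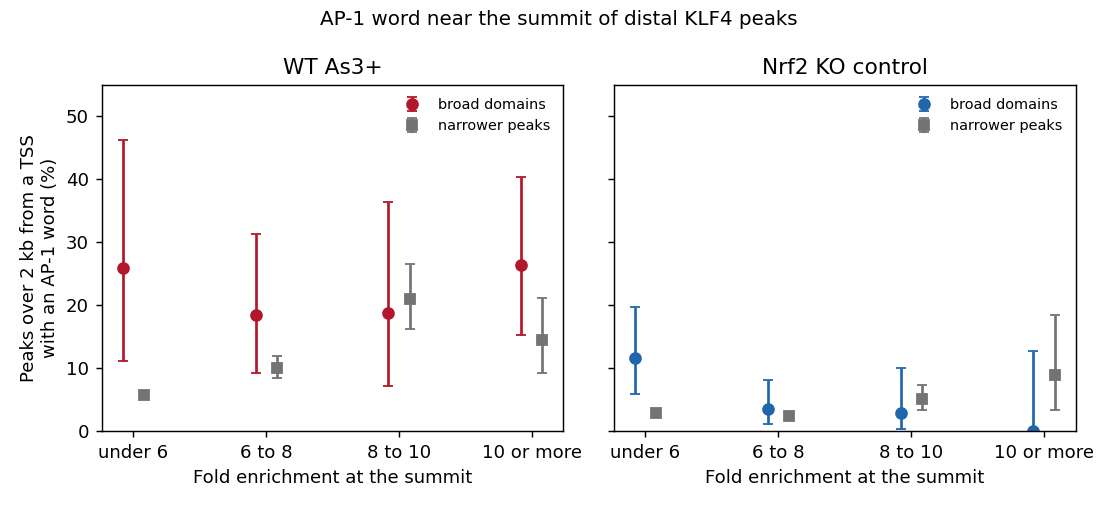
Percent of distal peaks with the word TGAGTCA in the 200 bp round the summit (vertical axis) by band of fold enrichment (horizontal axis), for broad domains (circles) and narrower peaks (squares) of each list; bars are exact 95% intervals that cover counting error only. In WT As3+ the broad domains lie between 18.5% and 26.4% in every band, and in Nrf2 KO control they are at 11.6% in the lowest and 0 in the highest band, with overlapping intervals, while narrower peaks are at 2.88% and 8.96%.

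Distal and promoter domains of WT As3+, as set by canonical starts only, also differed in what the other libraries held. The distal domains had a median fold of 8.27 in WT As3+, and the strongest overlapping Nrf2 KO control peak had a median of 6.86. At a TSS the medians were 7.3 and 6.98. The Nrf2 KO control peak had the higher fold at 42 of 157 distal domains (26.8%) and at 293 of 629 domains at a TSS (46.6%). A domain selected on width in WT As3+ tends to be strong in that list. The distal domains were the stronger there, with a median of 24 fragments against 19 at a TSS. The contrasts between the kinds of place were not repeated at like fold, so strength cannot be told apart from place. A WT control peak lay at 28.3% of distal and 8.54% of promoter domains. It lay at 17 of the 37 distal domains with the AP-1 word (45.9%) and at 30 of the 129 without it (23.3%). Those with the word were also the stronger, with a median of 28 fragments against 23. No interval was computed for these shares, and the split by the word was not repeated at like fold. Among Nrf2 KO control domains a WT control peak lay at 6.95% of distal and 3.5% of promoter domains. The distal Nrf2 KO control domains with the AP-1 word and the largest folds were in introns of TEAD3 (8.84-fold), CDC42BPG (8.01-fold) and LMNA (6.86-fold), with 8.66-fold, 15.4-fold and 5.95-fold in WT As3+. TEAD3 is a transcription factor of the Hippo pathway and LMNA encodes lamins A and C.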

How the data were processed

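KLF4 ChIP-seq was done in 4 libraries of BEAS-2B cells, 1 per condition. The authors sequenced 75-nt reads, aligned them to GRCh38 (hg38) with BWA and deposited 1 peak list per library. The peak caller is not given in the sources used here. The deposited columns were the fold enrichment at the summit (a ratio), −log10 p and −log10 q, and a score equal to 10 times −log10 q, rounded down. Peaks on chromosomes 1 to 22 and X were kept. Broad domains were intervals of at least 1000 bp in the WT As3+ and Nrf2 KO control lists.

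The fragments over each summit were recovered as the whole number that gave both the deposited fold, (fragments + 1)/(background + 1), and the Poisson p-value. Their median over all peaks was 25 in WT control, 10 in WT As3+, 7 in Nrf2 KO control and 19 in Nrf2 KO As3+. Library totals were not used here. TSSs came from GENCODE release 44 (62062 genes, 19970 of them protein-coding). Where an interval is printed with a share, it is an exact Clopper-Pearson 95% interval (counting error only). Without replicates, no test was run.

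Domains and gene lists were chosen with earlier results of these data known. The domains named were the 10 widest, the 10 of largest fold, the 5 of largest fold with no peak in the other list, and the 10 of largest fold with a peak in all 4 lists. The 5 pairs of largest summed width, list members broad in both lists and 7 genes of the study (KLF4, NFE2L2, MYC, EGFR, HMGB1, PDGFB and WNT10A) were named too. List members broad in 1 list, and clusters, were named after their values were seen. Some list members are not reported here. Scripts were tested on simulated data. Intervals came from scipy 1.17.1, tables from pandas 2.3.3, and sequence was read with samtools 1.23.1 and pysam 0.24.0, under Python 3.11.15.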

Additional observations from a re-analysis of the deposited data

How the results depend on the processing

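Each condition had 1 library, so the values describe these libraries, and a peak below a list's threshold cannot be told from one that is missing. No paired analysis was possible because each condition had 1 library and no replicate number. The 200 bp window and the count without clusters were chosen after seeing the data. Broad domains kept the higher share at a TSS and the higher share of overlap under the settings given here. Within bands of fold, the broad share was the lower at a TSS at 15-fold or more in WT As3+ (46.2% against 52.4%). It was also the lower for the distal AP-1 word at 8-fold to 10-fold (18.8% against 21.0% in WT As3+, 2.9% against 5.09% in Nrf2 KO control). The same held for that word at 10-fold or more in Nrf2 KO control (0 against 8.96%). The intervals overlapped each time. At 1500 bp or more there were 131 WT As3+ and 288 Nrf2 KO control domains, and at 800 bp or more 1785 and 3507. The share at a TSS in WT As3+ was 70.2% at 1500 bp or more, 70.3% with protein-coding starts only, 88.0% with every transcript start, 72.1% within 1 kb and 83.8% within 5 kb. In Nrf2 KO control it was 77.4% at 800 bp or more, 73.1% with protein-coding starts, 88.8% with every transcript, 71.0% within 1 kb, 86.7% within 5 kb, 82.6% from the interval's edge and 82.7% without clusters. The median distance in WT As3+ was 680 bp at 1500 bp or more, 508 bp with protein-coding starts, 180 bp with every transcript, 312 bp from the midpoint and 0 from the edge. In Nrf2 KO control it was 498, 520, 210, 376 and 0 bp in that order, and 379 bp without clusters. The share of WT As3+ domains that met a Nrf2 KO control peak was 100% at 1500 bp or more, 82.7% with −log10 q of 5 or more in every list, 81.6% with the summit inside the peak and 90.4% in the 200 bp window. The reverse share was 93.8% at 1500 bp or more, 81.6% at 800 bp or more, 63.7% by −log10 q, 61.7% by the summit, 85.2% with 50% overlap, 89.5% from the lower quartile of fold and 70.7% in the 200 bp window. A broad counterpart was met by 26.0%, 47.5% and 34.7% of WT As3+ domains at 1500 bp, at 800 bp and by the summit, and by 11.8% and 24.4% of Nrf2 KO control domains at 1500 and 800 bp. Genes with a broad domain numbered 86 and 223 at 1500 bp, and 1403 and 2659 at 800 bp. The causes of these shifts were not tested. Broad domains had the higher share at a TSS in 13 of 13 settings per list and the higher share of overlap in 10 of 10. Both counts include the main setting. They also include the setting without clusters, which took clustered domains out of the broad class only. The smallest gaps at a TSS were 9.9 percentage points in WT As3+ and 25.2 in Nrf2 KO control.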
